A study of Mus musculus with 6 samples.

Results

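The transcripts described here encode 8 growth factors that macrophages make: platelet-derived growth factors B and A (Pdgfb, Pdgfa), vascular endothelial growth factor B (Vegfb), transforming growth factor β1 (Tgfb1), progranulin (Grn), insulin-like growth factor 1 (Igf1), growth differentiation factor 15 (Gdf15) and heparin-binding EGF-like growth factor (Hbegf). They were chosen by symbol, with earlier results of these data known, from the 55487 Ensembl mouse genes of the deposited tables, and all 8 were found. The data are RNA-seq profiles of J774 cells, a mouse macrophage cell line, transfected by liposomes with control siRNA (siControl, labelled as control genotype) or with NCOA4 siRNA (siNCOA4, labelled as NCOA4 knockdown), with 3 libraries called biological replicates in each group. NCOA4 is the cargo receptor that carries ferritin, the iron store of the cell, to the autophagosome. Both groups come from a single cell line (clone E), carry an siRNA and the transfection reagent, and the labels name no other treatment. Only a single NCOA4 siRNA was used, the time between transfection and harvest is not given for these libraries, and the growth medium is DMEM with 10% serum in the labels but AMEM in the methods. Values are in TPM, that is, reads divided by gene length and scaled to the same total in each library. Levels of different genes can be compared only roughly within a library, because the length spans all annotated exons of a gene. For Pdgfb that length is 4161 bases, where its transcript Pdgfb-201 has 2944.

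Macrophages signal to neighbouring cells through such factors. The PDGF chains pair into dimers that drive mesenchymal cells through the receptor tyrosine kinases PDGFRα and PDGFRβ. IGF1 and HB-EGF also act through receptor tyrosine kinases, TGF-β1 is secreted in a latent complex and signals through SMAD proteins once released, and progranulin is both secreted and delivered to lysosomes. GDF15 is a distant member of the TGF-β family that is induced by cell stress, and VEGF-B binds the receptor FLT1 and its co-receptor neuropilin 1.

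Reads numbered 15502131 to 18282107 per library, with medians of 16985109 for siControl and 17342134 for siNCOA4. Only genes whose reads could be rebuilt as whole numbers in all 6 libraries are counted, so the full depth is somewhat higher. Ncoa4 itself was at 19.7, 22.5 and 22.4 TPM in siControl replicates 1 to 3 and at 9.63, 8.60 and 8.88 TPM in siNCOA4 replicates 1 to 3, so the libraries carried their labels' knockdown (41.9% of the control mean). Macrophage markers were present throughout. The 12 markers, among them Adgre1, Csf1r, Cd68 and Lyz2, summed to 10209 to 10478 TPM in siControl and 10833 to 10972 TPM in siNCOA4, and 5 of them rose (Adgre1, Fcgr1, Mertk, Csf1r and Laptm5) and 1 fell (Cd14) at an adjusted p under 0.05. By the same measure 3.11% of all genes tested rose and 2.31% fell. Over 16 other settings of the analysis (other scalings, filters and variance models, and each library left out), Fcgr1 passed in 16 and the other 5 in 8 to 12. Their part in the differences of the growth factors was not tested. Markers of fibroblasts summed to at most 0.0265 TPM, of epithelial cells to at most 0.150 TPM, of lymphocytes to at most 0.431 TPM and of endothelial cells to at most 1.99 TPM. Neutrophil markers summed to 18.8 to 25.2 TPM in siControl and 15.3 to 19.6 TPM in siNCOA4. Among them S100a8 was present, while S100a9, Ly6g, Mpo and Camp were listed at 0 in all 6 libraries. In bulk RNA, less RNA per cell and fewer cells that make a transcript cannot be told apart. Control replicate 1 stood apart from the other controls, with a chi-square per gene of 10.9 and 10.99 against replicates 2 and 3, where replicates 2 and 3 differed by 3.44 and the siNCOA4 libraries by 1.91 to 2.28.

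Of the growth factor transcripts, 2 were lower with siNCOA4 and none was higher at an adjusted p under 0.05. Pdgfb fell by 0.69 and Igf1 by 0.42 on the log2 scale. Vegfb, Tgfb1, Grn, Gdf15, Hbegf and Pdgfa did not pass the test. Differences were tested with limma on log2(TPM + 0.5) over the 13829 genes whose TPM averaged 0.5 or more, with Benjamini-Hochberg adjustment over all of them. To be called, a gene needed both an adjusted p below 0.05 and more than a 1.5-fold difference, which are the study's thresholds. All 8 transcripts passed the filter on low values and entered the test. By this rule 1 of the 8 was called lower (Pdgfb) and 0 were called higher, where 0.318% and 0.861% of all genes tested were called lower and higher. An adjusted p under 0.05 was reached by 2 of 8 in the lower direction and 0 of 8 in the higher, against 2.31% and 3.11% of all genes. The growth factors, and the gene lists read below, were chosen with earlier results of these data known. Such shares beside those of all genes are therefore no independent test of a list. With the limma-voom test on rebuilt reads the same 2 passed and 0 were higher, and none of the other 6 had an unadjusted p under 0.05 in the main test. Over all genes, 119 were called higher and 44 lower, or 105 and 68 after centring every library on its median value. The median log2 fold change was -0.04 over the growth factors and 0.03 over all genes.

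**Figure D1:**
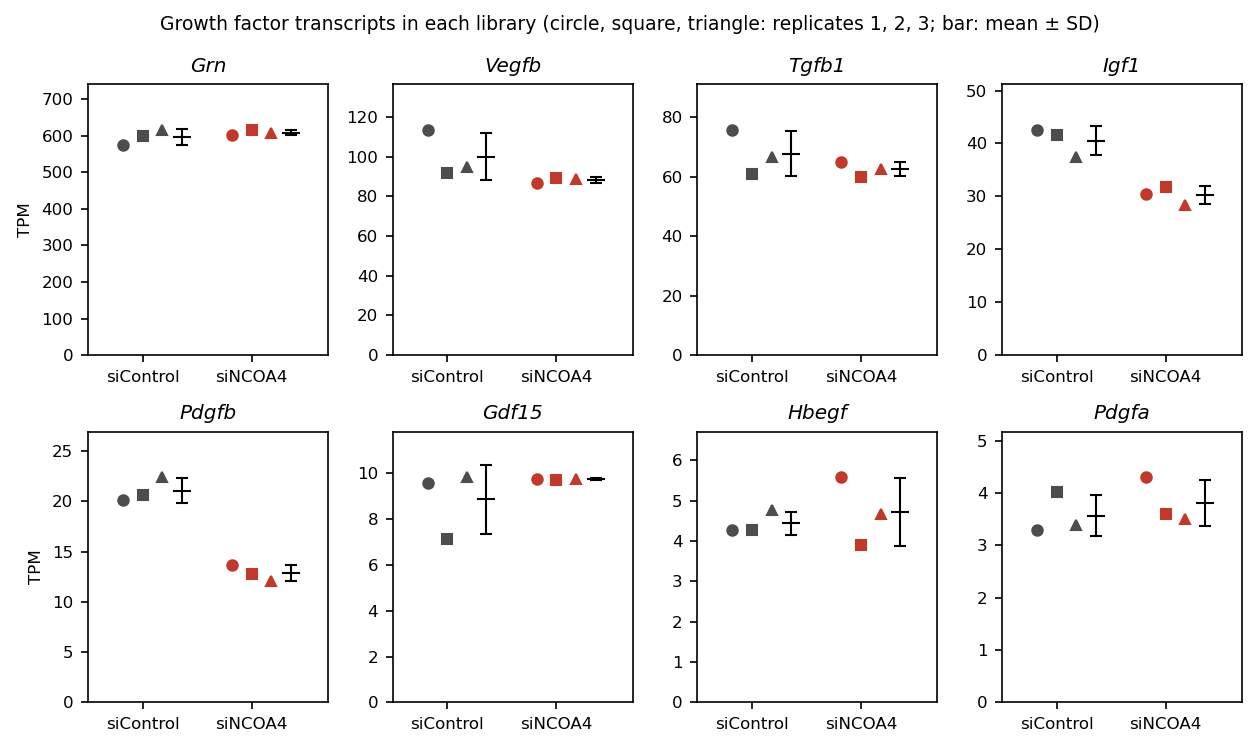
TPM of each growth factor transcript (vertical axis, from 0, a separate scale for each gene) in the 3 siControl and 3 siNCOA4 libraries, with the mean ± SD (n = 3) beside the points. The Pdgfb and Igf1 points of both groups are well separated, those of Vegfb are narrowly apart, and those of the other transcripts overlap.

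The levels of the growth factors differed widely. In siControl the mean was highest for Grn (596 TPM, above 98.4% of the genes tested over all libraries), followed by Vegfb (100.01 TPM), Tgfb1 (67.8 TPM), Igf1 (40.5 TPM), Pdgfb (21.1 TPM), Gdf15 (8.85 TPM), Hbegf (4.44 TPM) and Pdgfa (3.57 TPM, above 23.3%). No neighbours in this order overlapped among the control libraries. With siNCOA4 the order was the same, but Hbegf and Pdgfa overlapped there, and the step from Pdgfb down to Gdf15 was 1.32-fold in place of 2.38-fold.

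Pdgfb (ENSMUSG00000000489) encodes the B chain of PDGF, a mitogen of smooth muscle cells, pericytes and fibroblasts. In the GENCODE M21 annotation of GRCm38 the gene covers bases 79995874 to 80014977 of chromosome 15, minus strand. Libraries of the control group had 20.1, 20.7 and 22.4 TPM (replicates 1 to 3), and those of siNCOA4 had 13.7, 12.8 and 12.1 TPM. All siNCOA4 libraries lay below all control libraries, with a wide gap between the groups. The control values come from 481, 521 and 487 reads, the siNCOA4 values from 330, 290 and 304. Mean levels were 21.1 ± 1.22 TPM with siControl and 12.9 ± 0.776 TPM with siNCOA4 (SD, n = 3 each), so 61.0% of the control level was left. On the log2 scale the difference was -0.69 (SE 0.0698, 95% interval -0.86 to -0.53, adjusted p = 0.00466 by limma with Benjamini-Hochberg adjustment). Groups of libraries that did not overlap, with siNCOA4 lower, were found for 11.8% of all genes tested, and with siNCOA4 higher for 16.6%. Of the 8 growth factors 3 were of the lower kind (Pdgfb, Igf1 and Vegfb) and 0 of the higher kind. The exact two-sided permutation test of the TPM values gave p = 0.1, and no smaller value is possible with 3 libraries a group. Gm41361, an antisense gene that overlaps Pdgfb on the opposite strand, was at most 0.554 TPM in any library. Mir7213, a microRNA gene inside Pdgfb on the same strand, was at 6.04 TPM in siNCOA4 replicate 1 and was listed at 0 in the other 5 libraries. It spans only bases 79998970 to 79999026, a length on which very few reads give such a TPM. In that library 1 read on a gene of 2 kb is worth 0.0861 TPM, and more on a shorter gene.

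The Pdgfb transcript carries a short sequence in its 3′ untranslated region that the coding part of Ncoa4 also holds. The sequence of the NCOA4 siRNA is not given in the sources used here. The 7 bases GAATGCC were picked as a motif that Ncoa4 and the Pdgfb 3′ untranslated region share, with earlier results of these data known. Other stretches of 7 bases that Ncoa4 and Pdgfb share were not counted, and transcripts of this length can share many. A shared site is therefore no sign by itself of a link between Ncoa4 and Pdgfb. They were searched on the sense strand of the GENCODE M21 transcripts (GRCm38), and the stretches below are shown because they let the Pdgfb site be compared with those in the targeted transcript and in Slc1a4 and Fam49b, which are among the 3 transcripts most like Pdgfb in these libraries. Each runs 5′ to 3′ along the transcript, with the 7 bases in capitals.
Pdgfb, 3′ untranslated region, chr15:79996542-79996571, minus strand: attgaggccctGAATGCCcgccattcctcc
Ncoa4, coding sequence, chr14:32172331-32172360, plus strand: gtcgccacctgGAATGCCttcggagccgag
Ncoa4, coding sequence, chr14:32176568-32176597, plus strand: ggacaagaatgGAATGCCtatggaacctaa
Slc1a4, 3′ untranslated region, chr11:20304097-20304126, minus strand: agcactggcatGAATGCCtcctgagctaga
Fam49b, 3′ untranslated region, chr15:63931523-63931552, minus strand: acagtcttagtGAATGCCatcaaatctcct

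The 7 bases are present in an annotated 3′ untranslated region of 1493 of 21037 genes (7.10%). Of the growth factors Pdgfb has them, which the choice of the motif fixed beforehand, and the other 7 do not. Among genes tested, 818 have them, of which 10 were called lower (1.22%) and 6 higher (0.733%), with a median log2 fold change of -0.01. Among the 9949 tested genes with an annotated 3′ untranslated region that lacks them, 18 were called lower (0.181%) and 89 higher (0.895%), with a median of 0.03. The motif was picked with results of these data known, and the lengths of the untranslated regions were not matched. The 10 called lower include Pdgfb itself, and Commd10, Slc1a4 and Fam49b, which are described next. These shares are therefore no independent test of the motif. What part such sites have in the lower level of Pdgfb was not tested.

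The transcripts whose profile over the 6 libraries was nearest to that of Pdgfb were Commd10, Slc1a4 and Fam49b, out of 10037 genes whose TPM averaged 5 or more. Nearness was the root mean square difference of log2(TPM + 0.5) after each gene was centred on its own mean, and it was 0.0655, 0.0674 and 0.0688, where Pdgfb itself departed from its mean by a root mean square of 0.353. Slc1a4, a neutral amino acid transporter, was at 9.60 ± 0.364 TPM with siControl and 6.02 ± 0.344 TPM with siNCOA4 (SD, n = 3 each). Fam49b went from 59.4 ± 2.64 to 35.0 ± 2.43 TPM and Commd10 from 18.8 ± 0.432 to 12.1 ± 0.426 TPM. All 3 hold GAATGCC in a 3′ untranslated region, a motif picked with earlier results of these data known. They are among the genes with it that were counted above as called lower, so they add nothing separate to those shares.

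**Figure D2:**
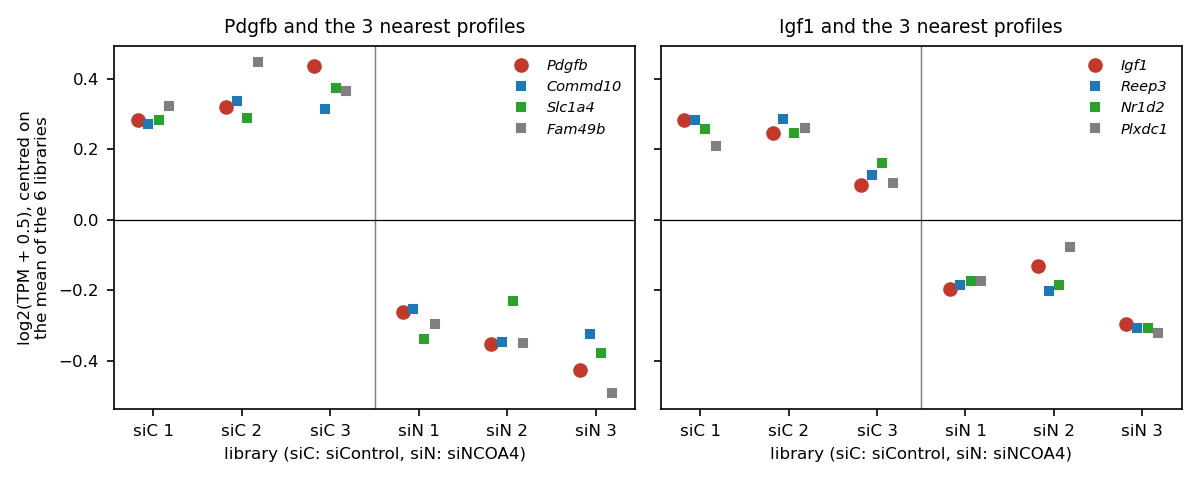
Log2(TPM + 0.5) of Pdgfb (left) and Igf1 (right) with their 3 nearest transcripts in each library, centred on the mean of the 6 libraries. The points of Pdgfb lie between 0.28 and 0.44 in siControl and between -0.43 and -0.26 in siNCOA4, and those of its neighbours follow them closely.

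Pdgfa (ENSMUSG00000025856), the A chain that forms PDGF-AA or PDGF-AB, showed no such difference. It lies on chromosome 5 from 138976014 to 138997370. The TPM was 3.29, 4.02 and 3.38 in siControl replicates 1 to 3 and 4.31, 3.59 and 3.51 in siNCOA4 replicates 1 to 3, with both groups overlapping. Its log2 fold change was 0.08 (95% interval -0.22 to 0.38, adjusted p = 0.759 by limma). These values rest on 55 to 78 reads per library, for which counting error alone is 11.3% to 13.5%, and the interval does not exclude a change of either sign. The antisense gene 6330403L08Rik, which overlaps Pdgfa, was at 0.166 to 0.631 TPM.

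The balance between the PDGF chains differed between the groups. A ratio within a library does not depend on how libraries are scaled to each other. Pdgfb exceeded Pdgfa 6.11-, 5.14- and 6.64-fold in siControl replicates 1 to 3 and 3.17-, 3.56- and 3.45-fold in siNCOA4 replicates 1 to 3, and the groups did not overlap. The log2 ratio went from 2.57 ± 0.188 to 1.76 ± 0.0870 (SD, n = 3 each; exact two-sided permutation test, p = 0.1, adjusted p = 0.1 over 7 ratios, the smallest possible). Against each of the other 6 growth factors Pdgfb was also lower in all siNCOA4 libraries than in all control libraries, by 0.29 on the log2 scale against Igf1, 0.54 against Vegfb, 0.60 against Tgfb1, 0.74 against Grn, 0.79 against Hbegf and 0.87 against Gdf15. Each of these tests gave the same p of 0.1. All 7 ratios share the Pdgfb value, so together they restate its lower level and are not separate evidence of it. The gap to Igf1 was the narrowest, with control replicate 1 at -1.08 and siNCOA4 replicate 1 at -1.16, and without control replicate 3 the difference was -0.19.

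**Figure D3:**
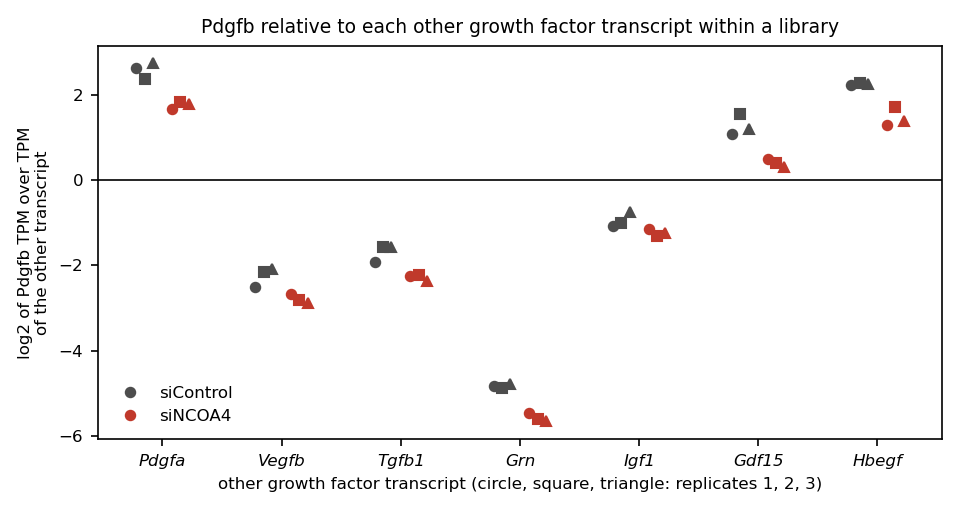
Log2 ratio of Pdgfb TPM to the TPM of each other growth factor transcript (vertical axis) within each siControl and siNCOA4 library. In all 7 comparisons the siNCOA4 points lie below the control points, least so for Igf1.

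The receptor genes of both chains were low in these cells. Pdgfra was at most 0.0183 TPM, and Pdgfrb was at 0.381, 0.633 and 0.7003 TPM in siControl and 0.629, 0.972 and 1.06 TPM in siNCOA4, an overlap of groups (adjusted p = 0.464 by limma). Furin, a convertase that trims pro-PDGF and pro-TGF-β1, was at 24.5 ± 2.53 and 22.6 ± 0.559 TPM (SD, n = 3 each) and did not pass the test. The related ligands Pdgfc and Pdgfd had no mean TPM of 0.5 or more and were not tested.

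Igf1 (ENSMUSG00000020053), a growth and survival factor that tissue macrophages secrete, was the other transcript that fell. The gene covers bases 87858265 to 87937042 of chromosome 10, plus strand. The TPM was 42.6, 41.5 and 37.4 in siControl replicates 1 to 3 and 30.4, 31.9 and 28.4 in siNCOA4 replicates 1 to 3. All siNCOA4 libraries lay below all control libraries. The mean went from 40.5 ± 2.73 to 30.2 ± 1.75 TPM (SD, n = 3 each), with 74.6% of the control level left, on 1696 to 2493 reads per library. This was a log2 difference of -0.42 (SE 0.0683, 95% interval -0.58 to -0.25, adjusted p = 0.0214 by limma), below the fold threshold of 1.5. The call at an adjusted p under 0.05 was lost without control replicate 2 (0.0614) and without siNCOA4 replicate 1, 2 or 3 (0.0943, 0.0710 and 0.0904), and with eBayes without a trend (0.0547), while the log2 fold change stayed between -0.47 and -0.37. Igf1os, the antisense gene that overlaps Igf1, was at 0.282 to 0.759 TPM.

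The profiles nearest to Igf1 were those of Reep3, Nr1d2 and Plxdc1, at root mean square differences of 0.0364, 0.0366 and 0.0404. Nr1d2, a nuclear receptor of the circadian clock, fell by 0.44 on the log2 scale (adjusted p = 0.0151 by limma), from 15.4 ± 0.578 to 11.2 ± 0.581 TPM (SD, n = 3 each). Reep3 went from 31.6 ± 1.97 to 22.7 ± 1.06 TPM and Plxdc1 from 38.6 ± 2.12 to 29.5 ± 2.54 TPM. Of these 3, Nr1d2 holds GAATGCC in a 3′ untranslated region.

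The IGF1 receptor gene Igf1r was at 4.75, 4.70 and 4.49 TPM in siControl and 4.30, 4.08 and 4.46 TPM in siNCOA4, so that the groups were just apart, and it did not pass the test (log2 fold change -0.11, adjusted p = 0.536 by limma). The insulin receptor gene Insr was level, at 9.11 ± 0.458 and 9.18 ± 0.166 TPM (SD, n = 3 each). Igfbp4, which binds IGF1 and keeps it from its receptor, was the only IGF-binding protein gene that entered the test. It had 153 ± 10.1 TPM with siControl and 172 ± 6.14 TPM with siNCOA4, a log2 fold change of 0.17 (adjusted p = 0.148 by limma).

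Vegfb (ENSMUSG00000024962; chromosome 19, 6982473 to 6987651) acts on endothelial cells. It was at 114, 91.9 and 94.5 TPM in siControl replicates 1 to 3 and at 86.6, 89.3 and 88.7 TPM in siNCOA4 replicates 1 to 3. The groups were apart only narrowly, and control replicate 1 was much the highest. This gave a log2 fold change of -0.17 (95% interval -0.37 to 0.02, adjusted p = 0.271 by limma), and -0.08 without control replicate 1. Vegfa, the main angiogenic member of the family, was likewise a little lower in all siNCOA4 libraries, at 18.0 to 18.7 TPM against 19.1 to 20.8 TPM, and did not pass either (adjusted p = 0.275 by limma). The receptor gene Flt1 was at 0.601 to 0.897 TPM and Nrp1 at 6.96 to 8.997 TPM over the 6 libraries. Nrp2, a neuropilin that serves as co-receptor for other VEGFs and for semaphorins, was at 91.4, 92.3 and 88.4 TPM in siControl replicates 1 to 3 and at 61.2, 60.6 and 60.6 TPM in siNCOA4 replicates 1 to 3. It fell by 0.57 on the log2 scale (SE 0.0368, adjusted p = 0.00127 by limma), just under the fold threshold.

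Tgfb1 (ENSMUSG00000002603; chromosome 7, 25687002 to 25705077) was at 75.9, 61.0 and 66.7 TPM in siControl replicates 1 to 3 and at 64.8, 60.1 and 62.7 TPM in siNCOA4 replicates 1 to 3. The groups overlapped, and control replicate 1 was again the highest. The log2 fold change was -0.11 (95% interval -0.30 to 0.08, adjusted p = 0.480 by limma), and -0.03 without control replicate 1. Tgfb3 was at 46.0 to 52.8 TPM over all libraries and Tgfb2 at most 0.331 TPM. Nrros, which tethers latent TGF-β1 to the surface of myeloid cells, was at 131, 146 and 145 TPM in siControl and 156, 161 and 157 TPM in siNCOA4 (adjusted p = 0.127 by limma). Its relative Lrrc32 was listed at 0 in all libraries. Integrin genes of the αv family, which release TGF-β1 from the latent complex, included Itgav, at 60.6 ± 4.99 and 63.8 ± 4.37 TPM (SD, n = 3 each), and Itgb5. Itgb5 rose by 0.38 on the log2 scale (adjusted p = 0.00660 by limma), from 57.2 ± 2.14 to 74.6 ± 0.728 TPM, while Itgb8 and Itgb6 were listed at 0.

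The TGF-β receptor genes Tgfbr1 and Tgfbr2 were at 33.6 ± 3.73 and 57.8 ± 1.55 TPM with siControl and at 42.3 ± 3.53 and 57.6 ± 0.922 TPM with siNCOA4 (SD, n = 3 each). Neither passed the test (adjusted p = 0.0997 and 0.949 by limma). Of 18 genes for SMAD proteins and their regulators, 13 were tested, 1 rose (Smad3, a mediator activated by the receptor) and 0 fell at an adjusted p under 0.05. Among all genes tested 3.11% rose and 2.31% fell. Smad3 went from 20.1 ± 0.564 to 24.6 ± 0.869 TPM, and it passed in 7 of 16 other settings (adjusted p up to 0.134 by limma). Smad5 had 24.2 ± 1.86 TPM with siControl and 29.4 ± 1.08 TPM with siNCOA4 and did not pass the test (adjusted p = 0.0655 by limma), and Usp15 and Tgif1 had log2 fold changes of -0.10 and -0.12. The median over these 13 genes was -0.03.

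A list of genes described as induced by TGF-β was read next, but their response to TGF-β in these cells was not measured here. Among all genes tested, 3.11% rose and 2.31% fell at an adjusted p under 0.05. Of the 19 listed genes, 13 were tested, of which 1 rose and 1 fell by that measure, with a median of -0.08. The one that rose was Tgfbi, a secreted matrix protein, at 3.93, 4.55 and 4.63 TPM in siControl and 16.4, 14.7 and 15.8 TPM in siNCOA4, a difference of 1.73 on the log2 scale (SE 0.0872, adjusted p = 0.00118 by limma). The one that fell was Bhlhe40, a transcriptional repressor, from 69.7 ± 3.09 to 59.6 ± 1.77 TPM (SD, n = 3 each; adjusted p = 0.0470 by limma). This call was lost in most other settings, as Bhlhe40 passed in 5 of 16 (adjusted p up to 0.170 by limma), while Tgfbi passed in all 16. Id1 was at 27.6, 33.0 and 39.5 TPM and at 20.6, 23.6 and 24.3 TPM, with no overlap, but missed the threshold (adjusted p = 0.0721 by limma). Id2 had 24.3 ± 0.638 TPM with siControl and 30.6 ± 3.37 TPM with siNCOA4 and missed it too (adjusted p = 0.0820 by limma). Smad7, the inhibitory SMAD that TGF-β induces directly, was at 1.93 to 2.97 TPM with siControl and 2.16 to 2.29 TPM with siNCOA4. Members of this list thus lay on both sides of 0, with Tgfbi far from the rest.

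**Figure D4:**
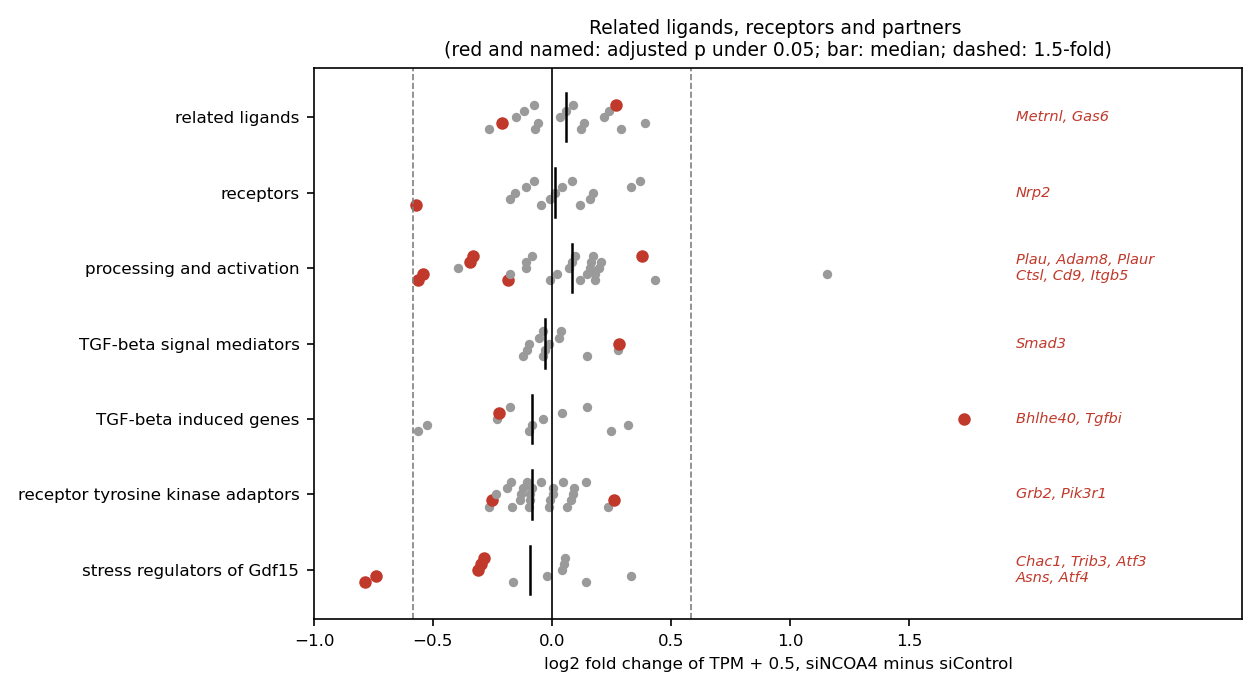
Log2 fold change of every tested gene in the lists of related ligands, receptors, partners and downstream genes (1 point per gene, red and named at an adjusted p under 0.05 by limma), with the median of each list as a bar. Most genes lie within 0.5 of 0. Nrp2, Adam8, Plau, Col4a1 and Id1 lie just inside the dashed line of a 1.5-fold decrease, and Chac1 and Trib3 lie beyond it. Of these, Col4a1 of the TGF-β induced list (adjusted p = 0.101 by limma) and Id1 did not pass the test. On the side of increases Tgfbi lies at 1.73 and Prtn3, which did not pass the test, at 1.16.

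Grn (ENSMUSG00000034708; chromosome 11, 102430315 to 102437048) was the steadiest of the growth factors. It was at 574, 599 and 615 TPM in siControl replicates 1 to 3 and at 602, 617 and 606 TPM in siNCOA4 replicates 1 to 3, with overlap, on 11143 to 12709 reads per library. The log2 fold change was 0.03, and its 95% interval of -0.07 to 0.12 spans a fold of 0.956 to 1.09 (adjusted p = 0.717 by limma). The sorting receptor gene Sort1, which takes progranulin to the lysosome, was at 0.170 to 0.387 TPM and was not tested. Prosaposin (Psap), its other carrier, was at 965, 1047 and 1078 TPM in siControl and 1188, 1161 and 1193 TPM in siNCOA4, above the controls in all libraries (log2 fold change 0.20, adjusted p = 0.0785 by limma). Slpi, which shields progranulin from elastase, overlapped between groups at 136 to 172 and 163 to 185 TPM. The TNF receptor genes Tnfrsf1a and Tnfrsf1b, whose products have been described as progranulin binding partners, had log2 fold changes of 0.16 and 0.17 (adjusted p = 0.0832 and 0.135 by limma). Ctsl, a lysosomal protease that can cut progranulin into granulins, fell from 821 ± 27.3 to 652 ± 3.16 TPM (SD, n = 3 each; adjusted p = 0.00751 by limma).

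Gdf15 (ENSMUSG00000038508; chromosome 8, 70629393 to 70632456) was at 9.59, 7.13 and 9.84 TPM in siControl replicates 1 to 3 and at 9.76, 9.71 and 9.75 TPM in siNCOA4 replicates 1 to 3. Control replicate 2 was low and the groups overlapped. Between the groups the log2 fold change was 0.14 (95% interval -0.15 to 0.44, adjusted p = 0.546 by limma), and 0.0040 without control replicate 2. The 80 to 109 reads per library carry a counting error of 9.58% to 11.2%, which is larger than the spread of 0.270% between the siNCOA4 libraries. The receptor gene Gfral was at most 0.0837 TPM, and its partner Ret was listed at 0.

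Some of the stress genes around Gdf15 passed the test. Of 12 genes for transcription factors that induce Gdf15 under stress and for other targets of them, all 12 were tested, 5 fell and 0 rose at an adjusted p under 0.05, with a median of -0.09. Over all genes tested 2.31% fell and 3.11% rose, but the list was chosen with earlier results of these data known. Whatever the test, 7 of the 12 had a log2 fold change below 0 and 5 above. Atf4, the transcription factor of the integrated stress response, was at 471, 442 and 454 TPM in siControl and 370, 378 and 373 TPM in siNCOA4 (log2 fold change -0.29, adjusted p = 0.0116 by limma). Its targets Asns and Chac1 were lower as well: Asns had 102 ± 1.62 TPM with siControl and 83.1 ± 1.53 TPM with siNCOA4, and Chac1 had 11.1 ± 0.976 and 6.24 ± 0.725 TPM (SD, n = 3 each). Trib3 fell by 0.74 on the log2 scale (adjusted p = 0.0483 by limma) and Atf3 by 0.31 (0.0396), and Chac1 and Trib3 also passed the fold threshold. In the 16 other settings Chac1 passed in 14, Asns in 13, Atf4 in 12, and Trib3 and Atf3 in 8 each (adjusted p up to 0.175 and 0.146 by limma). Ddit3 was level, at 17.0 to 18.2 TPM with siControl and 16.7 to 18.3 TPM with siNCOA4. Sesn2 of the same list had 61.4 ± 4.09 TPM with siControl and 63.6 ± 1.33 TPM with siNCOA4 (adjusted p = 0.634 by limma). Ddit4 had 111 ± 18.5 and 139 ± 10.3 TPM, with overlap (adjusted p = 0.179 by limma). The p53 gene Trp53 was at 196 ± 4.44 and 217 ± 1.13 TPM (adjusted p = 0.0675 by limma).

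Hbegf (ENSMUSG00000024486; chromosome 18, 36504927 to 36515805), a membrane-bound ligand of the EGF family, was at 4.29, 4.27 and 4.76 TPM in siControl replicates 1 to 3 and at 5.59, 3.91 and 4.66 TPM in siNCOA4 replicates 1 to 3. The siNCOA4 libraries lay on both sides of the controls. A log2 fold change of 0.07 was found (95% interval -0.25 to 0.39, adjusted p = 0.813 by limma), on 103 to 157 reads per library. Its receptor genes Egfr and Erbb4 were listed at 0 in all libraries. The sheddase gene Adam17 was at 122 ± 10.2 and 121 ± 2.73 TPM and Adam10 at 98.8 ± 5.16 and 107 ± 1.47 TPM (SD, n = 3 each), and neither passed the test. Cd9, a tetraspanin that associates with the HB-EGF precursor, fell by 0.18 on the log2 scale (adjusted p = 0.0262 by limma), from 508 ± 4.58 to 447 ± 2.76 TPM.

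**Figure D5:**
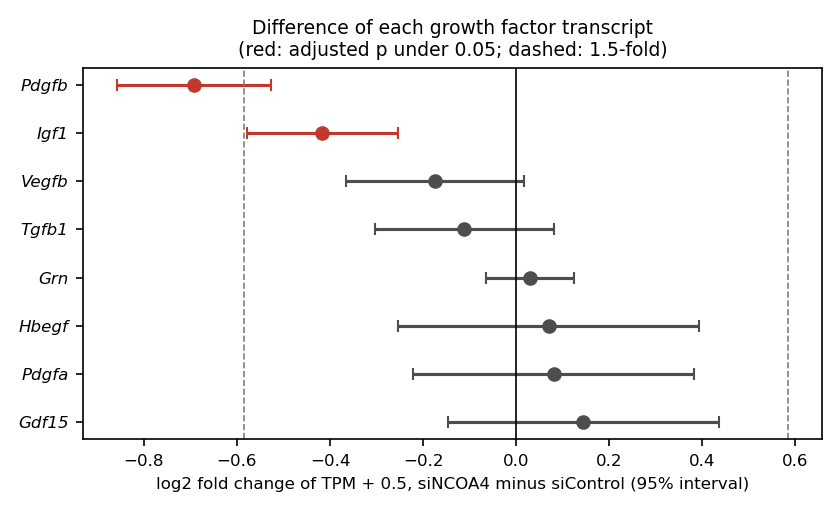
Log2 fold change of each growth factor transcript (horizontal axis) with its 95% interval from limma. The intervals of Pdgfb (-0.86 to -0.53) and Igf1 (-0.58 to -0.25) lie below 0, and those of the other 6 include 0.

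Related ligands, receptors and processing genes were each read as a list. As background, 3.11% of all genes tested rose and 2.31% fell at an adjusted p under 0.05. Of 58 other ligands, 17 were tested and 30 were listed at 0 in all libraries. At an adjusted p under 0.05 Gas6, a ligand of the TAM receptors that clear dead cells, rose from 93.9 ± 3.53 to 113 ± 0.485 TPM, and Metrnl fell from 124 ± 3.35 to 107 ± 1.44 TPM (SD, n = 3 each). Gas6 passed in 11 and Metrnl in 10 of 16 other settings. Mst1 and Hdgf had log2 fold changes of 0.22 and -0.15 and did not pass. Csf1, the growth factor of macrophages themselves, was at 38.5 to 40.3 TPM with siControl and 38.4 to 41.9 TPM with siNCOA4. Of 25 receptors, 15 were tested, 1 fell (Nrp2) and 0 rose, with a median of 0.01.

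Of 47 genes whose products cleave, store, activate or carry the growth factors, 27 were tested, 1 rose (Itgb5) and 5 fell (Adam8, Plau, Ctsl, Cd9 and Plaur) at an adjusted p under 0.05, with a median of 0.08. The shares over all genes tested were 3.11% and 2.31%, but the list was chosen with earlier results of these data known. Adam8 and Itgb5 passed in all 16 other settings, Plau in 13, Ctsl in 12, and Cd9 and Plaur in 8 each (adjusted p up to 0.134 and 0.138 by limma). Adam8, a metalloprotease of myeloid cells, was at 227, 234 and 239 TPM in siControl and 160, 159 and 162 TPM in siNCOA4 (log2 fold change -0.54, adjusted p = 0.00135 by limma). Plau, the urokinase that activates plasminogen, was at 622, 749 and 727 TPM and at 481, 478 and 455 TPM (log2 fold change -0.56, adjusted p = 0.0102 by limma). Plaur, its receptor, was named after its values were seen and fell by 0.35 on the log2 scale (adjusted p = 0.0375 by limma). Prtn3 had 1.11 ± 0.508 TPM with siControl and 2.98 ± 0.403 TPM with siNCOA4 (SD, n = 3 each), on 6 to 32 reads per library. Its log2 fold change of 1.16 just missed the threshold (adjusted p = 0.0527 by limma).

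Of 30 adaptors and kinases downstream of the PDGF, IGF and EGF receptors, 27 were tested, 1 rose and 1 fell at an adjusted p under 0.05, with a median of -0.09. Shares of 3.11% and 2.31% were found over all genes tested. Grb2, the adaptor that links receptors to RAS, fell from 133 ± 5.51 to 112 ± 2.27 TPM, and Pik3r1, a regulatory subunit of PI3-kinase, rose from 14.7 ± 0.240 to 17.7 ± 0.293 TPM (SD, n = 3 each). Grb2 passed in 10 and Pik3r1 in 7 of 16 other settings (adjusted p up to 0.117 and 0.148 by limma). Pik3r2 and Pik3cb had log2 fold changes of -0.24 and -0.27 and missed the threshold (adjusted p = 0.0527 and 0.0652 by limma).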

How the data were processed

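RNA was measured in 6 libraries of J774 cells, 3 per siRNA. The authors made stranded poly(A) libraries, sequenced paired ends and deposited TPM per Ensembl gene for each library. Each library sums to the same total, with no further scaling between libraries. The submitters' processing notes name Trimmomatic (0.33), FastQC, HISAT2 (2.1.0), featureCounts, edgeR and mm10. The annotation release and the strand setting of the counting are not given in the sources used here. The deposited identifiers were matched to GENCODE M21 (GRCm38) for 55227 of 55487. The growth factors and gene lists were chosen with earlier results of these data known.

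Whole reads were rebuilt as TPM times exon length over the worth of 1 read, and were whole within 0.02 in all 6 libraries for 20770 of 21096 genes above 0 (98.5%). They give the depth and serve 1 alternative test. Counting errors do not include variation between cultures. The p-values and the 95% intervals of limma measure the spread between libraries, whose separate origin the labels give only as "biol rep".

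Limma (3.58.1, R 4.3.3; lmFit, eBayes with a trend, no block) was run on log2(TPM + 0.5) for genes whose TPM averaged 0.5 or more, with Benjamini-Hochberg adjustment. It was tested on simulated data whose changes were larger than those of Pdgfb and Igf1 and which held no outlying library. That test therefore does not show how well differences of their size are found here. Single values and ratios were tested by exact permutation (Python 3.11.15). Genes named are the growth factors, Ncoa4, called genes and the 4 smallest adjusted p of each list, direct partners, and the 3 nearest profiles of each growth factor with an adjusted p under 0.05. Prtn3, Plaur, Col4a1, Sesn2 and Ddit4 were named after their values were seen. Alternatives are given in the closing section, and Ddit3 was read from the longer of its 2 identifiers. No per-sample column was left out. A gene of the TGF-β induced list is not reported here and was left out of the counts of that list.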

Additional observations from a re-analysis of the deposited data

How the results depend on the processing

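Over 16 other settings (other pseudocounts, filters, scalings, variance models, limma-voom, the replicate block and each library left out) Pdgfb was called lower in all 16, with a log2 fold change of -0.75 to -0.65, and was the only growth factor called in each. Igf1 kept its direction in all 16 and an adjusted p under 0.05 in 11 (limma with Benjamini-Hochberg adjustment). It was lost with eBayes without a trend (-0.42) and, within a range of -0.47 to -0.37, when control replicate 2 or any siNCOA4 library was left out. The signs of 3 small differences turned. Grn was at -0.0285 under median centring, and Pdgfa at -0.0076 and Hbegf at -0.0137 under quantile normalization. With single libraries left out, Pdgfa ranged from -0.0019 to 0.16 and Hbegf from -0.0480 to 0.185, both below 0 without siNCOA4 replicate 1. The cause was not tested. Pdgfa and Hbegf could not be fitted with a mean TPM of at least 5. The directions of all 7 Pdgfb ratios held under each alternative tried on them, including the paired sign-flip test, whose smallest p is 0.25.

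Genes called over the whole table numbered 163, and 77 to 172 with single libraries left out, with 86, 77 and 98 without siNCOA4 replicate 1, 2 or 3. Without the genes that hold GAATGCC, an alternative chosen with the data known, 142 were called, 110 higher and 32 lower. Same-numbered libraries of the groups deviated together with correlations of 0.0283, -0.0185 and 0.0229, and not every library correlated best with its own number, so the numbers were not taken as pairs. With the replicate number as a block 87 genes were called. Depth limits Pdgfa, Hbegf and Gdf15 most, at 55 to 157 reads per library.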
